A study of Mus musculus with 23 samples.

Results

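Transcript levels of 8 genes of the TGF-beta pathway were measured by bulk RNA sequencing of 23 mouse tumors. The genes were taken by name, with earlier results of these data known: the ligands Tgfb1, Tgfb2 and Tgfb3, the receptors Tgfbr1 and Tgfbr2, the latency protein Ltbp1, the inhibitor Smad7 and the target Tgfbi. All 8 were found among the 26869 genes of the count table, and all 8 passed the filter on low counts in every comparison.

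TGF-beta ligands are secreted in a latent form, held by their own propeptide and tied to the matrix by latent binding proteins such as Ltbp1, and they act only once released. Free ligand brings together a type II receptor (Tgfbr2) and a type I receptor (Tgfbr1), which phosphorylate SMAD proteins that move to the nucleus and switch on target genes. In tumors the pathway is known for driving fibroblast and matrix programs and for restraining T cells, and its blockade has been combined with antibodies against PD-1.

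MC38, a mouse colon carcinoma line of C57BL/6 origin, was grown under the skin of female F1 mice aged 8 to 12 weeks, after injection of cultured cells. Each host was a cross of C57BL/6J with a Collaborative Cross line, a recombinant inbred strain bred from several founder strains. The study classed the hosts C57BL/6J x CC001/UncJ (CC001F1), C57BL/6J x CC002/UncJ (CC002F1) and C57BL/6J x CC075/UncJ (CC075F1) as responders (R) to antibody against PD-1, and the hosts C57BL/6J x CC036/UncJ (CC036F1), C57BL/6J x CC079/TauUncJ (CC079F1) and C57BL/6J x CC080/TauUncJ (CC080F1) as non-responders (NR). The class is a property of the line and is not written in the sample labels. At a size of 75 to 110 mm3 the mice received 200 µg of isotype control antibody (2A3) or of aPD1 (29F.1A12) in the peritoneum, and tumors were taken 48 h later. Each line was sampled with 2 tumors per antibody, but the aPD1 arm of CC080F1 was a single tumor (1), so that R hosts gave 12 tumors and NR hosts 11. All hosts carry 1 set of C57BL/6J chromosomes, and each class rests on 3 lines.

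Libraries held 14494014 to 71868253 counts. Of these, 6 were shallow (at most 18354585 counts, 2 from R and 4 from NR hosts) and 17 were deep (at least 37242363). Levels are given as normalized counts, the counts divided by the DESeq2 size factor of the library, and levels of different genes are compared only per kb of exon. Shisal2b, used here as the marker of MC38 cells, was found in every tumor, with 460 to 1133 normalized counts in R and 523 to 1138 in NR tumors. Markers of fibroblasts, macrophages, T and NK cells, regulatory T cells and endothelium were all above 0 in every tumor. Among the markers of B cells, skeletal muscle, keratinocytes, adipocytes and platelets, some genes were at 0 in some tumors. The sum of the keratinocyte markers fell to 0 in both classes. No marker gene was at 0 throughout. In a bulk tumor, fewer cells of a type and less RNA per cell cannot be told apart.

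Tgfb1 and Tgfbi were the members that differed between R and NR hosts, and the bases just before their starts are shown for that reason. They come from RefSeq's promoter windows on GRCm38.p6, which held 6 of the 8 members, and were cut where the annotated gene begins. Tgfb1 (ENSMUSG00000002603) lies on the plus strand at chr7:25687002-25705077, and the bases shown are chr7:25686752-25687001. Tgfbi (ENSMUSG00000035493) lies on the plus strand at chr13:56609523-56639562, and the bases shown are chr13:56609336-56609522. Capitals mark each GC box (GGGCGG or CCGCCC) and each core of a Smad-binding element (GTCTG or CAGAC).
Tgfb1: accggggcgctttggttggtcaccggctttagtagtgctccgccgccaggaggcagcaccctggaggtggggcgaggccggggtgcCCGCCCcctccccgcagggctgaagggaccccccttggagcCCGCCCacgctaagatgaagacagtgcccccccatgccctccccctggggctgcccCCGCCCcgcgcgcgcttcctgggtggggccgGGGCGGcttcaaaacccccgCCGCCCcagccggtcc
Tgfbi: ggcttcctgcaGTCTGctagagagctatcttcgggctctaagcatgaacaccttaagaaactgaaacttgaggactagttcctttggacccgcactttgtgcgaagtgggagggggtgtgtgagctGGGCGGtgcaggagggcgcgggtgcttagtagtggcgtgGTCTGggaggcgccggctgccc
The 250 bases before Tgfb1 are 75.2% G or C and hold 5 GC boxes and no GTCTG or CAGAC. The 187 bases before Tgfbi are 59.4% G or C and hold 1 GC box and 2 copies of GTCTG, at bases 12 to 16 and 166 to 170 of the stretch. Neither stretch holds the AP-1 letters TGANTCA. The shares below count windows with at least 1 match. Of 32851 windows of 250 bases, 32.7% held a GC box, 42.2% GTCTG or CAGAC, and 6.75% TGANTCA. Of the same windows cut to 187 bases, 22.2% held a GC box, 34.2% GTCTG or CAGAC, and 5.14% TGANTCA.

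Per kb of exon, Tgfbi was the most abundant of the 8 transcripts. It had a mean of 3660 normalized counts per kb over the 23 tumors, above 98.5% of 26160 genes with a known length. Tgfbi encodes a secreted matrix protein that binds collagens and integrins. Tgfbr2 followed with 1082 and Tgfb3 with 1072 normalized counts per kb. Tgfb1 had 616 and Tgfbr1 had 556. Smad7, which binds the type I receptor and blocks its signal, had 236, and Ltbp1 had 208. Tgfb2 stood far below all others at 9.54, and Tgfb1 exceeded it 64.5-fold per kb. Among the ligand transcripts the order per kb was Tgfb3, Tgfb1 and Tgfb2. The length used was that of all annotated exons of a gene merged, 5042 bases for Tgfb1 and 3383 for Tgfb3. The order was not tested with other lengths.

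**Figure D1:**
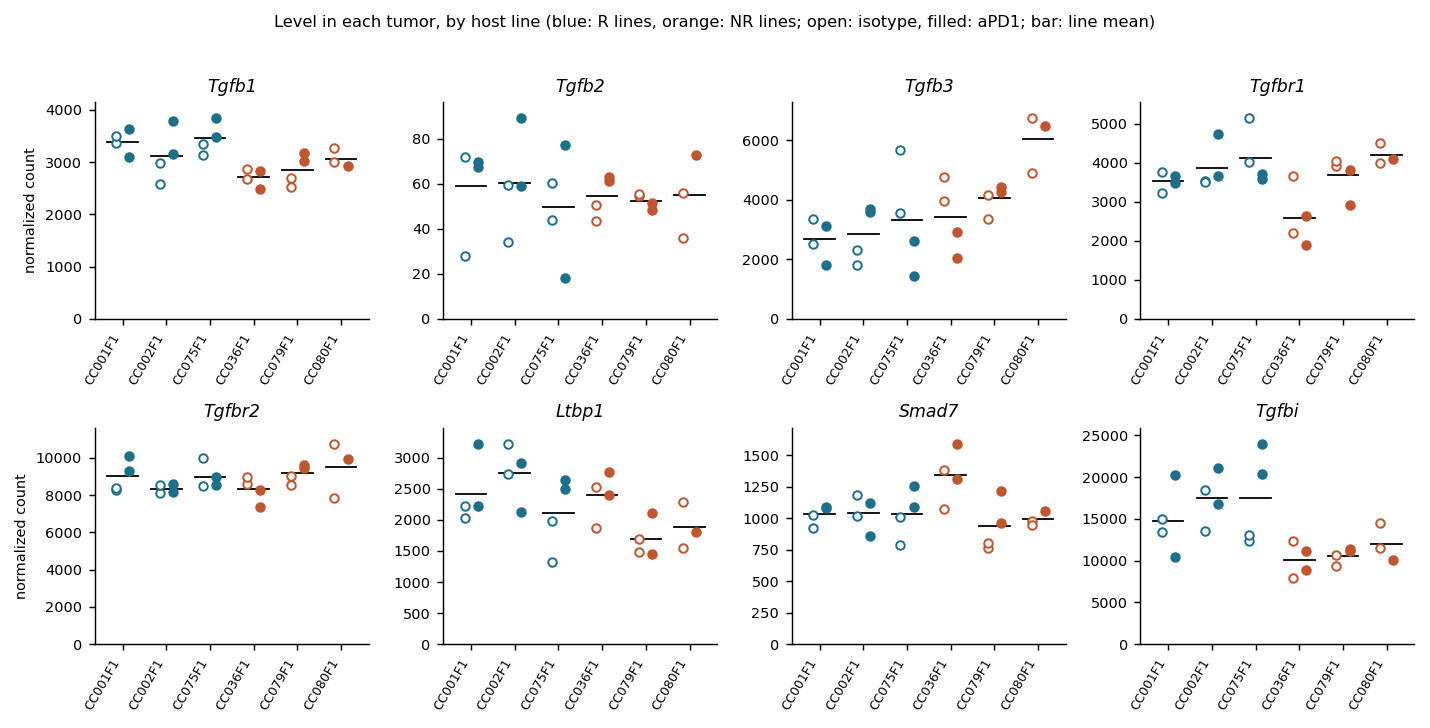
Normalized count (linear axis from 0) of each of the 8 genes in each of the 23 tumors, by host line, with a black bar at the line mean; blue points are R and orange points NR lines, open points isotype and filled points aPD1. The CC036F1 tumors include the lowest Tgfbr1 and the highest Smad7 values, CC080F1 holds the highest Tgfb3 mean, and the R line means of Tgfb1 and Tgfbi lie above all NR line means.

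The first comparison asked how far the members differed among the 6 host lines. With antibody as a term, the DESeq2 likelihood ratio test called 5 of the 8 members at an adjusted p under 0.05 (Tgfb1, Tgfbr1, Ltbp1, Smad7 and Tgfbi), where it called 16% of 19192 genes tested. The edgeR quasi-likelihood test called 3 (Tgfb1, Tgfbr1 and Tgfbi), against 6.32% of 26342 genes. The spread given below for each member is the difference on the log2 scale between the highest and the lowest fitted line level.

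Among the ligands, Tgfb1, the form made by most immune cells, differed by a small amount. Its values in the 4 tumors of each R line were 3364, 3494, 3091 and 3631 normalized counts in CC001F1, 2983, 2582, 3782 and 3158 in CC002F1, and 3144, 3353, 3839 and 3481 in CC075F1, with the 2 isotype tumors first. The NR lines had 2862, 2677, 2487 and 2828 in CC036F1, 2524, 2706, 3183 and 3019 in CC079F1, and 2999, 3268 and 2935 in CC080F1. CC036F1 stayed at or below 2862 in all 4 tumors and overlapped CC079F1. The line means fell from 3454 ± 292 (SD, n = 4) in CC075F1 to 2714 ± 171 (SD, n = 4) in CC036F1, in the order CC075F1, CC001F1, CC002F1, CC080F1, CC079F1, CC036F1. No neighbours in that order differed beyond their spread, taken as the larger of their SDs. The spread of 0.35 passed the test (DESeq2 adjusted p = 0.0108, edgeR adjusted p = 0.0473), but not in the deep libraries alone (DESeq2 adjusted p = 0.0679).

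Tgfb3, a ligand linked to palate fusion and wound repair, varied most. Its values were 2502, 3337, 3114 and 1802 normalized counts in CC001F1, 1802, 2302, 3693 and 3582 in CC002F1, and 3551, 5682, 1431 and 2611 in CC075F1. The NR lines had 3964, 4751, 2930 and 2055 in CC036F1, 4161, 3364, 4262 and 4444 in CC079F1, and 4888, 6735 and 6475 in CC080F1. CC080F1 held the 2 highest values, and tumors of CC075F1 differed from each other more than most lines did. The mean of CC080F1, 6033 ± 1000 (SD, n = 3), exceeded that of the next line, CC079F1, by more than the larger SD, and the remaining order of CC036F1, CC075F1, CC002F1 and CC001F1 held no such step. The spread of 1.15 did not pass (DESeq2 adjusted p = 0.0954, edgeR adjusted p = 0.137). It did without CC075F1 isotype replicate 2 (DESeq2 adjusted p = 0.00759) or without CC075F1 aPD1 replicate 1 (DESeq2 adjusted p = 0.0309). Tgfb2 had 18 to 89.1 normalized counts, and its line means of 49.9 to 60.5 could not be put in an order (DESeq2 adjusted p = 0.996, edgeR adjusted p = 0.994).

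Ltbp1 covalently binds the latent ligand and anchors it in the matrix. Its values were 2217, 2030, 2220 and 3225 normalized counts in CC001F1, 3220, 2735, 2910 and 2131 in CC002F1, 1978, 1329, 2637 and 2493 in CC075F1, 1875, 2530, 2774 and 2401 in CC036F1, 1485, 1687, 1455 and 2115 in CC079F1, and 2288, 1542 and 1809 in CC080F1. CC079F1 lay lowest and CC002F1 highest, with overlap. Line means ranged from 1685 ± 304 (SD, n = 4) in CC079F1 to 2749 ± 458 (SD, n = 4) in CC002F1, in the order CC002F1, CC001F1, CC036F1, CC075F1, CC080F1 and CC079F1, with no step beyond the SDs. The spread of 0.72 passed in DESeq2 (adjusted p = 0.0164), and neither in edgeR (adjusted p = 0.0692) nor with depth class as a term (DESeq2 adjusted p = 0.0555). The DESeq2 call was lost without CC002F1 isotype replicate 1 (adjusted p = 0.0728), CC079F1 isotype replicate 1 (0.0638) or CC079F1 aPD1 replicate 1 (0.077).

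The receptors were both tested. Tgfbr2, the ligand-binding receptor, was even across lines, with line means of 8311 ± 683 (SD, n = 4) in CC036F1 to 9498 ± 1504 (SD, n = 3) in CC080F1 and no step beyond the SDs. Its spread of 0.20 did not pass (DESeq2 adjusted p = 0.551, edgeR adjusted p = 0.58). Tgfbr1, the signalling receptor, was low in CC036F1. Its values there were 3651 and 2207 normalized counts with isotype and 2626 and 1881 with aPD1, a mean of 2591 ± 770 (SD, n = 4). CC001F1 had 3770, 3211, 3480 and 3656, CC002F1 had 3524, 3499, 3667 and 4725, and CC075F1 had 4007, 5132, 3582 and 3720. CC079F1 had 3918, 4036, 3814 and 2919, and CC080F1 had 4500, 3980 and 4103. The 3 lowest tumors, at 2626 or less, were all from CC036F1, and the fourth, its shallow library (isotype replicate 1), lay among the other lines. The step from CC001F1 (3529 ± 244, SD, n = 4) down to CC036F1 was the one step in the order CC080F1, CC075F1, CC002F1, CC079F1, CC001F1, CC036F1 that exceeded the larger SD. The spread of 0.69 passed in both tools (DESeq2 adjusted p = 0.0025, edgeR adjusted p = 0.032), and without CC036F1 isotype replicate 2 it did not (DESeq2 adjusted p = 0.0551).

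Smad7 was highest in CC036F1. In CC036F1 it had 1071 and 1386 normalized counts with isotype and 1314 and 1591 with aPD1, a mean of 1341 ± 215 (SD, n = 4). CC001F1 had 1023, 925, 1084 and 1088, CC002F1 had 1018, 1184, 1119 and 860, and CC075F1 had 1010, 790, 1259 and 1086. CC079F1 had 760, 801, 1219 and 965, and CC080F1 had 974, 945 and 1055. The step from CC036F1 down to CC002F1 (1045 ± 141, SD, n = 4) was larger than the larger SD, and the other lines, in the order CC075F1, CC001F1, CC080F1 and CC079F1, did not differ beyond theirs. The spread of 0.53 passed in DESeq2 (adjusted p = 0.0268), and neither in edgeR (adjusted p = 0.0874) nor in the deep libraries alone (DESeq2 adjusted p = 0.187). The DESeq2 adjusted p rose to 0.242 without CC036F1 isotype replicate 2 and to 0.215 without CC036F1 aPD1 replicate 2, and to 0.0643, 0.06 and 0.0579 without CC079F1 isotype replicate 1, isotype replicate 2 and aPD1 replicate 2.

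In the tumors of CC036F1 the markers of vessels and of fibroblast matrix, and those of macrophages, were low as well. The summed level of the 3 endothelial markers (Pecam1, Cdh5 and Kdr) was 1662 to 3071 normalized counts there, against 3624 to 4299 in CC079F1 and 4288 to 5534 in CC080F1. The sum of the 6 fibroblast markers (Col1a1, Bgn, Postn, Dcn, Lum and Pdgfrb) was 24820 to 37245 in CC036F1, against 39110 to 43834 in CC079F1 and 44726 to 46183 in CC080F1, and it overlapped the 28081 to 58778 of the R lines. The sum of the 4 macrophage markers was lowest in CC036F1 too, with a mean of 53051 against 60949 to 96995 in the other lines, and its 38649 to 70602 overlapped theirs. Col1a1 alone, a fibrillar collagen, had a mean of 2371 ± 793 (SD, n = 4) in CC036F1 and of 5932 to 9520 in the other 5 lines. The part of these cell types in the Tgfbr1 and Smad7 levels was not tested.

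Tgfbi, named for its induction by TGF-beta, differed between lines with a spread of 0.79 (DESeq2 adjusted p = 0.00833, edgeR adjusted p = 0.013), though not in the deep libraries alone (DESeq2 adjusted p = 0.0917). Its line means ran from 10067 ± 2039 (SD, n = 4) in CC036F1 to 17463 ± 3151 (SD, n = 4) in CC002F1, in the order CC002F1, CC075F1, CC001F1, CC080F1, CC079F1, CC036F1. The R tumors had 15039, 13382, 10455 and 20246 normalized counts in CC001F1, 18473, 13516, 21038 and 16827 in CC002F1, and 12403, 13030, 23988 and 20351 in CC075F1. The NR tumors had 12328, 7892, 11169 and 8880 in CC036F1, 10617, 9298, 11359 and 11148 in CC079F1, and 14492, 11485 and 10028 in CC080F1. No neighbours differed beyond the larger SD, and the first 3 were the R lines.

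The second comparison asked which members differed between R and NR hosts. In the 23 tumors together, adjusted for antibody, Tgfb1 and Tgfbi were higher in R tumors and the other 6 members were not called. DESeq2 thus called 2 of 8 members, both higher in R, where it called 14.4% of 17643 genes tested, 7.66% higher and 6.78% lower in R. With edgeR, which called 6.7% of 26342 genes, the same 2 genes were called.

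Tgfbi had 12403, 13449 and 18473 normalized counts (lowest, median and highest) in the 6 R isotype tumors and 10455, 20299 and 23988 in the 6 R aPD1 tumors. The NR tumors had 7892, 11051 and 14492 with isotype (n = 6) and 8880, 11148 and 11359 with aPD1 (n = 5). The classes overlapped. With isotype, the R tumors at 12403, 13030, 13382 and 13516 lay inside the NR range. With aPD1, 1 low R tumor, CC001F1 replicate 1 at 10455, did so. Tgfbi was 1.51-fold higher in R tumors (95% interval 1.29 to 1.77, log2 difference 0.60 ± 0.12 SE, DESeq2 adjusted p = 2.45e-05, edgeR adjusted p = 0.00223).

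For Tgfb1 the lowest, median and highest values were 2582, 3249 and 3494 normalized counts in R isotype tumors (n = 6) and 3091, 3556 and 3839 in R aPD1 tumors (n = 6). They were 2524, 2784 and 3268 in NR isotype tumors (n = 6) and 2487, 2935 and 3183 in NR aPD1 tumors (n = 5). The ranges overlapped with either antibody. Tgfb1 was 1.16-fold higher in R tumors (95% interval 1.07 to 1.26, log2 difference 0.21 ± 0.06 SE, DESeq2 adjusted p = 0.00622, edgeR adjusted p = 0.0157). The line means of Tgfb1, Tgfbi and Tgfb3 did not overlap between the classes, which held for 25.7% of the 17643 genes.

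Tumors of a line share their host genome, and the fit above treated them as independent. With counts summed to 1 value per line, an alternative added after the data were seen, and in limma with a random line effect, both genes were still called. The limma fit used a single within-line correlation of 0.0152 for all genes. It therefore still treated the tumors of a line as nearly independent. Over all 9 alternatives the adjusted p of Tgfb1 was at most 0.0293 and that of Tgfbi at most 0.00626, and leaving out any 1 of the 23 tumors kept both calls.

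Tgfb3 pointed the other way, with a mean of 2951 ± 1153 (SD, n = 12) normalized counts in R tumors and of 4366 ± 1382 (SD, n = 11) in those of NR hosts. Its log2 difference of -0.56 ± 0.21 (SE) missed the threshold (DESeq2 adjusted p = 0.0606, edgeR adjusted p = 0.0848). It passed without CC075F1 isotype replicate 2 (DESeq2 adjusted p = 0.007), CC036F1 aPD1 replicate 2 (0.0254), CC002F1 aPD1 replicate 1 (0.0444) or CC002F1 aPD1 replicate 2 (0.0488). Ltbp1 had a log2 difference of 0.27 ± 0.13 (SE, DESeq2 adjusted p = 0.138), which passed without CC075F1 isotype replicate 2 (DESeq2 adjusted p = 0.0322). For Tgfbr1 the difference was 0.18 (95% interval -0.05 to 0.41), for Tgfb2 0.08 (-0.28 to 0.42), for Smad7 -0.09 (-0.28 to 0.11) and for Tgfbr2 -0.03 (-0.14 to 0.09). The interval was narrowest for Tgfbr2 and widest for Tgfb2 among these 4.

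**Figure D2:**
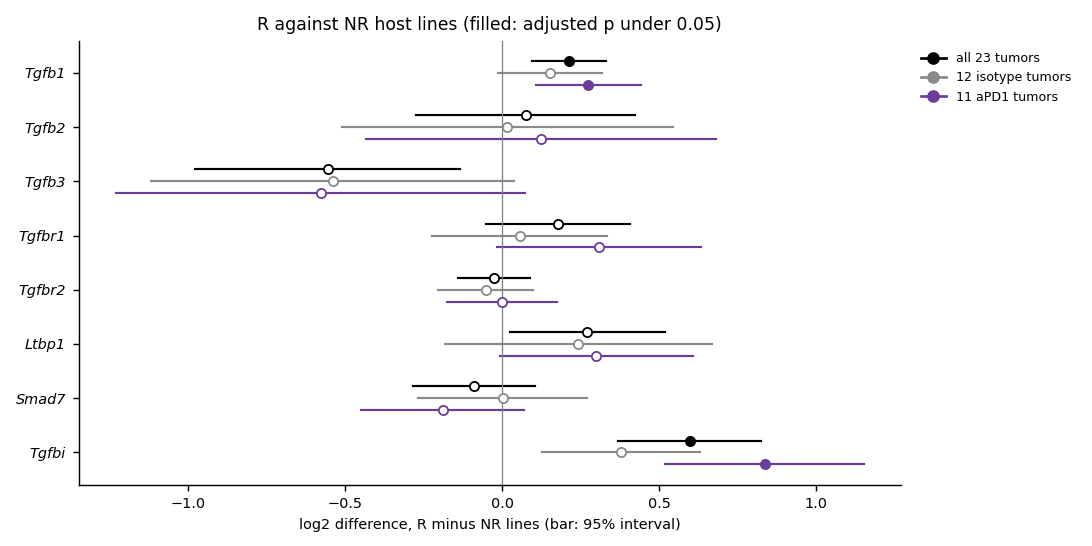
Log2 difference between R and NR host lines for each gene, with its 95% interval, in all 23 tumors (black), the 12 isotype tumors (grey) and the 11 aPD1 tumors (purple); filled points had a DESeq2 adjusted p under 0.05. Tgfbi lies furthest to the right in all 3 sets (0.60, 0.38 and 0.84), Tgfb3 lies to the left in all 3, and Tgfbr2 is centred on 0.

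Within isotype tumors 0 of 8 members were called by DESeq2, which called 5.53% of 14995 genes, or by edgeR, which called 0.122% of 24538 genes. At an unadjusted p under 0.05 there was 1 member in DESeq2 (Tgfbi) and 2 in edgeR (Tgfb3 and Tgfbi). The Tgfbi difference was 0.38 ± 0.13 (SE, DESeq2 adjusted p = 0.0555, edgeR adjusted p = 0.175). It passed without CC080F1 isotype replicate 1 (DESeq2 adjusted p = 0.00323) or CC075F1 isotype replicate 2 (0.0279), and without the latter Tgfb3 passed too (DESeq2 adjusted p = 0.00902). Within aPD1 tumors DESeq2 called 2 of 8 members, Tgfb1 and Tgfbi, both higher in R, where it called 7.93% of 17156 genes and 5.94% as higher. edgeR called Tgfbi alone, where it called 2.25% of 24928 genes. Tgfbi was 1.79-fold higher in R (95% interval 1.43 to 2.22, DESeq2 adjusted p = 2.63e-05, edgeR adjusted p = 0.0156), and in limma with a random line effect it missed the threshold (adjusted p = 0.0646). Tgfb1 was 1.21-fold higher (log2 difference 0.27 ± 0.09 SE, DESeq2 adjusted p = 0.0222, edgeR adjusted p = 0.0761). Its call was lost in 4 of 8 alternatives, and in DESeq2 without CC001F1 replicate 2 (adjusted p = 0.0659), CC002F1 replicate 1 (0.0708), CC075F1 replicate 1 (0.0721), CC036F1 replicate 1 (0.0913) or CC036F1 replicate 2 (0.0508). No member separated the tumors of the classes without overlap with either antibody, which 1.17% of genes did in isotype and 3.75% in aPD1 tumors. Whether the class difference changed with antibody was tested as an interaction, given below.

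Several T and NK cell and macrophage markers were called higher in R hosts, as were Tgfb1 and Tgfbi. Over all tumors, 4 of the 5 T and NK cell markers were called higher in R by DESeq2 and by edgeR (Cd3e, Cd8a, Nkg7 and Ifng). Their summed level, over all 5, was 551 to 1449 normalized counts in R isotype and 750 to 2868 in R aPD1 tumors, against 220 to 1102 and 340 to 756 in NR tumors. Of the 4 macrophage markers, DESeq2 called 2 higher in R (Adgre1 and Csf1r), and edgeR called Adgre1 alone. The sum over all 4 was 42971 to 131513 in R and 38649 to 88018 in NR tumors. That sum did not follow class in every line. Its mean was 60949 in the R line CC002F1, below the 67409 of CC079F1 and the 77515 of CC080F1, which are NR lines. None of the fibroblast markers was called higher in R, and Dcn was called lower by DESeq2 alone. Pecam1, an endothelial marker, was called higher by both tools, and Il2ra, a marker of regulatory T cells, by DESeq2 alone. Among the aPD1 tumors DESeq2 called the 3 skeletal muscle markers higher in R, with sums of 12.3 to 11516 in R and 8.47 to 199 in NR. It called the 3 B cell markers lower, with overlapping sums of 30.8 to 163 in R and 78.4 to 2778 in NR. edgeR called no muscle or B cell marker there. The part of these cell types in the Tgfb1 and Tgfbi differences was not tested.

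The third comparison asked whether the members changed 48 h after aPD1. None was called. With line as a term over all tumors, DESeq2 called 0 of 8 members, where it called 2.79% of 16638 genes, and edgeR called 0 of 8, where it called 0.0569% of 26342 genes. At an unadjusted p under 0.05 there was 1 member in each tool, Smad7. Within R lines the counts were again 0 of 8 in both tools (5.26% of 15701 genes called in DESeq2, 0% in edgeR), with Tgfbi alone at an unadjusted p under 0.05 in each. Within NR lines they were 0 of 8 in both (0.0448% of 24552 genes called in DESeq2, 0.0204% in edgeR), with Smad7 alone at an unadjusted p under 0.05 in each. The antibody effect of no member differed between classes by the interaction test (0 of 8 in both tools, and 0 of 8 at an unadjusted p under 0.05), which called 0.0342% of 26342 genes in DESeq2 and 0% in edgeR. Few genes of any kind passed in NR lines or in the interaction, so a count of 0 there says little about the members.

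Smad7, itself induced by TGF-beta signals, came nearest over all lines. Its lowest, median and highest values were 790, 1014 and 1184 normalized counts in R isotype tumors (n = 6) and 860, 1087 and 1259 in R aPD1 tumors (n = 6). In NR tumors they were 760, 959 and 1386 with isotype (n = 6) and 965, 1219 and 1591 with aPD1 (n = 5). The groups overlapped, and the mean was higher with aPD1 in 5 of the 6 lines, by -0.16 (CC002F1) to 0.47 (CC079F1) on the log2 scale. The fitted change was 0.21 ± 0.08 (SE, 95% interval 0.05 to 0.37, DESeq2 adjusted p = 0.153, edgeR adjusted p = 0.311), and it passed without CC002F1 aPD1 replicate 2 (DESeq2 adjusted p = 0.0295).

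The mean log2 level of Tgfbi was higher with aPD1 in 5 of 6 lines, by 0.01 in CC036F1 to 0.80 in CC075F1. It was lower in CC080F1 (-0.36), whose aPD1 arm is 1 tumor. In CC036F1 the mean normalized count was slightly lower with aPD1 (10024) than with isotype (10110). In R lines the fitted change was 0.38 ± 0.16 (SE, 95% interval 0.07 to 0.68, DESeq2 adjusted p = 0.164, edgeR adjusted p = 0.369), which passed without CC001F1 aPD1 replicate 1 (DESeq2 adjusted p = 0.000353). In NR lines it was -0.03 (95% interval -0.26 to 0.20). The difference between these effects, 0.41 (95% interval -0.08 to 0.90), did not pass (DESeq2 adjusted p = 0.869, edgeR adjusted p = 0.701).

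The other members had changes over all lines of 0.10 for Tgfb1 (95% interval -0.01 to 0.22), 0.31 for Tgfb2 (-0.08 to 0.70), -0.19 for Tgfb3 (-0.59 to 0.20), 0.19 for Ltbp1 (-0.02 to 0.41), -0.12 for Tgfbr1 (-0.30 to 0.06) and 0.03 for Tgfbr2 (-0.08 to 0.14). Tgfb3 differed most from line to line, from -1.22 in CC075F1 and -0.82 in CC036F1 to 0.84 in CC002F1. The direction of its line means was split, 3 lines higher and 3 lower, and so was that of Tgfb1.

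**Figure D3:**
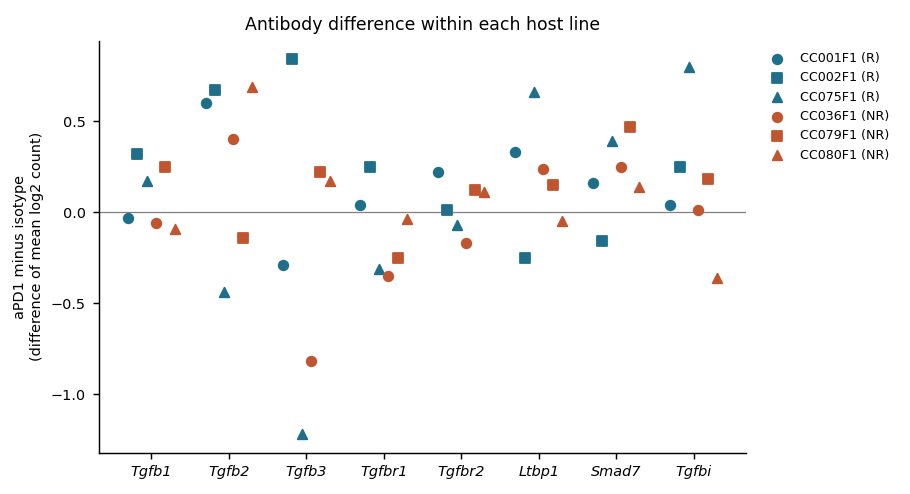
Difference between aPD1 and isotype tumors of the mean log2 (normalized count + 1) of each gene, 1 point for each host line (blue R, orange NR); each arm is 2 tumors, except the aPD1 arm of CC080F1, which is 1. Tgfbr2 stays between -0.17 and 0.22 in all lines, whereas Tgfb3 ranges from -1.22 to 0.84.

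Other genes of the pathway were followed as 5 lists with 53 genes: latency and activation, accessory receptors, SMADs and their regulators, response genes, and the activin and BMP arms. Between lines DESeq2 called 22 of the 52 with an adjusted p, where it called 16% of all genes tested, and edgeR 19 of 53, where it called 6.32%. Between R and NR hosts over all tumors DESeq2 called 13 of 52, 5 higher and 8 lower in R, and edgeR 10 of 53, 4 higher and 6 lower, beside 14.4% and 6.7% of all genes. The median log2 difference over these lists was 0.01, against -0.000425 over all genes tested.

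Among the 11 genes of latency and activation, 6 of the 10 tested differed between lines. They were the latent binding proteins Ltbp2 (spread 1.79, DESeq2 adjusted p = 0.00154), Ltbp4 (0.71, 0.000114) and Ltbp3 (0.47, 0.0286), the integrin Itgb8, which activates latent ligand (1.34, 0.0101), and the anchors Lrrc32, which holds latent ligand on regulatory T cells (1.13, 5.56e-06), and Nrros, which holds it on macrophages and microglia (0.78, 1.51e-05). Ltbp3 and Itgb8 were not called by edgeR (adjusted p = 0.104 and 0.0826). Between classes Nrros was higher in R, with 1798 ± 429 (SD, n = 12) against 1233 ± 233 (SD, n = 11) normalized counts (log2 difference 0.52 ± 0.10 SE, DESeq2 adjusted p = 3.56e-05, edgeR adjusted p = 0.00179). Ltbp3 and the protease Bmp1 were lower in R, and were picked for naming after their values were seen (log2 difference -0.30 and -0.35, DESeq2 adjusted p = 0.00606 and 0.00377). Bmp1 was not called in the deep libraries alone or in limma.

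Of the 4 accessory receptors 2 were called in opposite directions. Acvrl1, a type I receptor best known in endothelium, was higher in R, with 915 ± 368 (SD, n = 12) against 569 ± 105 (SD, n = 11) normalized counts (log2 difference 0.60 ± 0.14 SE, DESeq2 adjusted p = 0.000308, edgeR adjusted p = 0.00597). Tgfbr3, the co-receptor betaglycan that presents ligand, was lower, with 3006 ± 431 (SD, n = 12) against 3811 ± 476 (SD, n = 11) (log2 difference -0.34 ± 0.08 SE, DESeq2 adjusted p = 0.000481, edgeR adjusted p = 0.00697). Both also differed between lines. Some SMADs carry the signal to the nucleus, and their list also held regulators that are not SMADs. None of its 11 genes was called between classes over all tumors by DESeq2 or by edgeR. Among the aPD1 tumors DESeq2 called 1 of them, Zfyve9, an anchor of receptor SMADs picked for naming after its values were seen, as lower in R (log2 difference -0.21 ± 0.07 SE, DESeq2 adjusted p = 0.0427), and edgeR did not (adjusted p = 0.0893). The Zfyve9 call was kept in only 2 of 8 alternatives, and in 3 of 11 cases when 1 tumor was left out. Of the 11, 1 differed between lines, the corepressor Tgif1, with its highest mean in CC036F1 (4439 ± 761, SD, n = 4) and its lowest in CC079F1 (2810 ± 185, SD, n = 4).

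Of the 14 response genes, 10 differed between lines, with a median spread of 1.43 against 0.44 over all genes tested. Matrix and contractile genes led these: Col1a2 (spread 2.48, DESeq2 adjusted p = 0.00154), the collagen cross-linker Lox (2.27, 0.0251), Tnc (2.24, 0.00605), Col1a1 (1.84, 0.0112), Acta2 (1.75, 4.48e-07), Postn (1.55, 0.00261) and Tagln (1.49, 5.32e-07). In all 7 the lowest line mean was that of CC036F1. For Col1a2 it was 1172 ± 741 (SD, n = 4) normalized counts there, and the next lowest, CC080F1, had 4366 ± 845 (SD, n = 3). Col1a1 and Postn are also fibroblast markers.

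Between classes 3 response genes were higher in R and 3 lower. The smooth muscle genes Tagln and Acta2 were higher (log2 differences 0.90 ± 0.16 and 0.79 ± 0.24 SE, DESeq2 adjusted p = 5.13e-06 and 0.0114, edgeR adjusted p = 0.00148 and 0.0255), and so was Tnc in DESeq2 (0.90 ± 0.32 SE, adjusted p = 0.0415) but not in edgeR (adjusted p = 0.0627). Tagln had 228 ± 108 (SD, n = 12) normalized counts in R tumors against 117 ± 43.5 (SD, n = 11) in NR hosts. Snai1, a repressor of epithelial genes, was lower in R, with 1390 ± 232 (SD, n = 12) against 1969 ± 342 (SD, n = 11) (log2 difference -0.50 ± 0.10 SE, DESeq2 adjusted p = 3.05e-05, edgeR adjusted p = 0.00222). Fibronectin (Fn1) was lower in DESeq2 (-0.32 ± 0.11 SE, adjusted p = 0.0404) and not in edgeR (adjusted p = 0.104). Leaving out 1 tumor at a time kept the call of Fn1 in 10 and that of Tnc in 11 of 23 cases. Acta2 was lost with counts summed per line. Response genes thus changed in both directions, and the member Tgfbi was higher in R like Tagln and Acta2.

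In the activin and BMP arms, Bmp2 (spread 0.91, DESeq2 adjusted p = 0.00172) and Inhbb (1.48, 0.00096) differed between lines. The activin subunit gene Inhba differed too, and it was lower in R, as was the receptor gene Bmpr1a (log2 differences -0.30 and -0.12, DESeq2 adjusted p = 0.00157 and 0.026). Inhba and Bmpr1a were picked for naming after their values were seen, and Bmpr1a was not called by edgeR (adjusted p = 0.0762). The Bmpr1a call was kept in 4 of 9 alternatives, and in 17 of 23 cases when 1 tumor was left out. Within isotype tumors DESeq2 called 7 pathway genes, 1 higher and 6 lower in R, edgeR called none of the 53, beside 5.53% and 0.122% of all genes, and the deep libraries alone gave 2 higher and 0 lower. Within aPD1 tumors DESeq2 called 7, 4 higher and 3 lower, edgeR 4, 3 higher and 1 lower, beside 7.93% and 2.25% of all genes, and limma with a random line effect called 0.

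**Figure D4:**
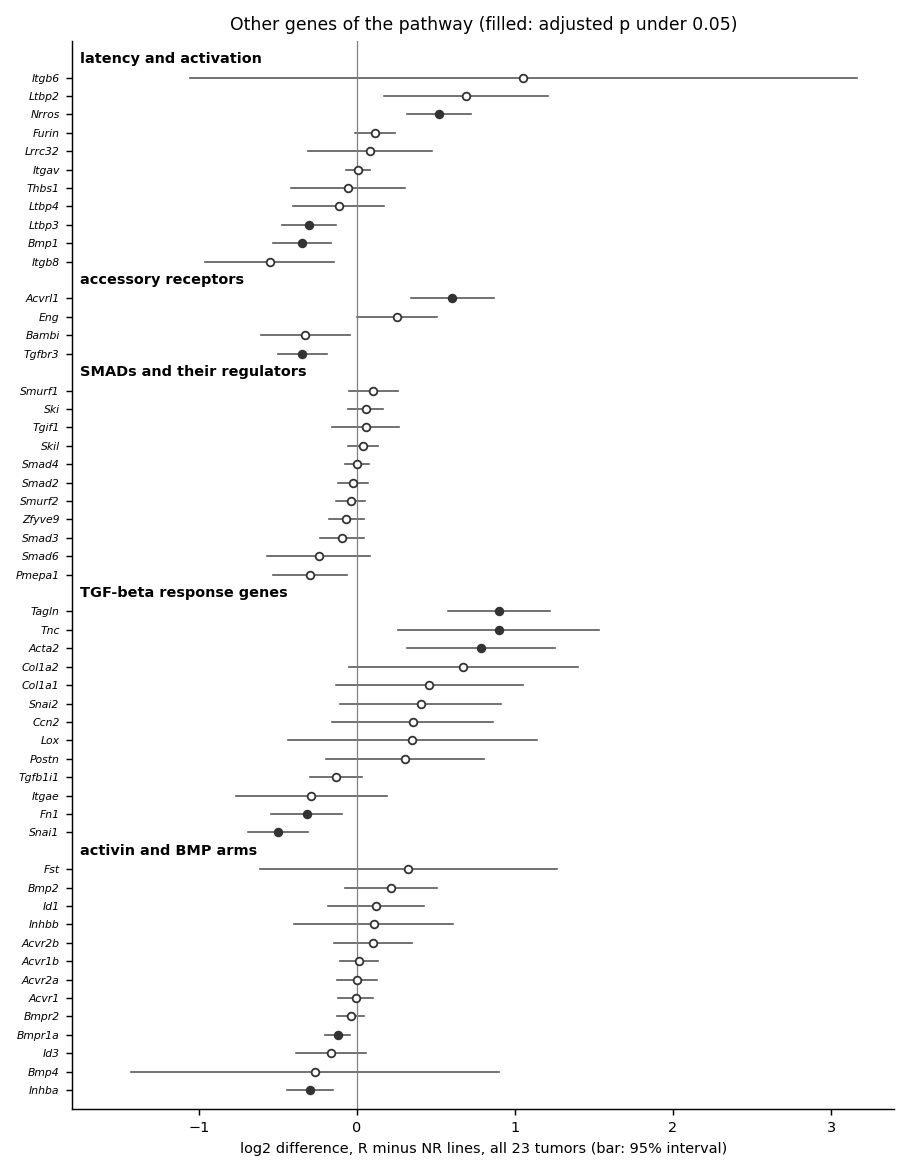
Log2 difference between R and NR host lines over all 23 tumors for 52 of the 53 other genes of the pathway, grouped by list and ordered within it, with 95% intervals; filled points had a DESeq2 adjusted p under 0.05. None of the points of the SMADs and their regulators is filled, and the response genes run from Tagln at 0.90 down to Snai1 at -0.50.

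Pathway genes outside the 8 did change with aPD1 in DESeq2. Over all lines 8 of 51 tested were higher and 0 lower, where 2.55% of genes were called higher, and in R lines 9 of 51 were higher and 0 lower, where 4.85% were. In NR lines 0 of 53 were called, by DESeq2 or edgeR. edgeR called 1 over all lines, Tagln, and 0 in R lines, where it called no gene at all. The R and NR effects of these genes were not shown to differ, since the interaction called 0 of 53 in either tool, though 1 of 53 with a replicate block.

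Tagln changed most over all lines (log2 change 0.84 ± 0.15 SE, DESeq2 adjusted p = 6.4e-05, edgeR adjusted p = 0.0262). Its lowest, median and highest values were 131, 157 and 174 normalized counts in R isotype and 198, 276 and 463 in R aPD1 tumors, and 64.5, 93.8 and 123 in NR isotype and 93.2, 155 and 205 in NR aPD1 tumors. Acvrl1 (0.55 ± 0.12 SE, DESeq2 adjusted p = 0.00254) and Furin, a protease that cleaves the ligand precursor (0.26 ± 0.06, 0.00397) were called as well. Ltbp2 (0.77 ± 0.22, 0.0289), Bmp2 (0.39 ± 0.12, 0.035), Acta2 (0.55 ± 0.16, 0.0352) and Nrros (0.32 ± 0.10, 0.0387) were called too, and none of these passed in edgeR (adjusted p 0.0508 to 0.138). Within R lines the calls of Tagln, Acvrl1, Acta2, Furin, Ltbp2 and Nrros were joined by Thbs1, thrombospondin, which releases ligand from its latent form (0.97 ± 0.24 SE, DESeq2 adjusted p = 0.00374, edgeR adjusted p = 0.0634), and Ccn2, a matrix protein induced by TGF-beta (0.83 ± 0.24 SE, DESeq2 adjusted p = 0.0184, edgeR adjusted p = 0.133). Thbs1 had 1106, 1515 and 1740 (lowest, median and highest) normalized counts in R isotype and 1679, 2672 and 5208 in R aPD1 tumors. In NR tumors it had 1719, 2056 and 2575 with isotype and 1714, 2379 and 2815 with aPD1, so the classes overlapped. Among the isotype tumors DESeq2 called Thbs1 lower in R, and edgeR did not. Leaving out 1 tumor at a time over all lines kept the calls of Ltbp2, Nrros, Acta2 and Bmp2 in 9 to 12 of 23 cases and those of Tagln, Acvrl1 and Furin in all 23. In the deep libraries alone, over all lines, 4 pathway genes were called, and the calls of Ltbp2, Acvrl1, Furin and Bmp2 were lost. Within R lines, leaving out 1 tumor kept the calls of Ltbp2 and Nrros in 5 of 12 cases and that of Ccn2 in 7 of 12. It kept those of Tagln, Acvrl1, Acta2, Furin and Thbs1 in all 12. The macrophage marker Adgre1 and the T and NK cell marker Ifng were also called higher with aPD1 in R lines by DESeq2, and their part in these changes was not tested.

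Finally the members were compared with each other over the 23 tumors, as log2(normalized count + 1), in 28 pairs. Permutation tests with 100000 resamples and Benjamini-Hochberg adjustment over the 28 pairs passed 3 pairs by Pearson's r. Tgfb1 and Tgfbi were positively correlated (r = 0.719, p = 0.00019, adjusted p = 0.00177; rho = 0.695, p = 0.00048, adjusted p = 0.00826). Tgfb3 and Ltbp1 were opposed (r = -0.70, p = 0.00015, adjusted p = 0.00177; rho = -0.664, p = 0.00059, adjusted p = 0.00826). Tgfbr1 and Smad7 were opposed as well (r = -0.757, p = 7e-05, adjusted p = 0.00177; rho = -0.628, p = 0.00185, adjusted p = 0.0173).

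With values centred on the line mean and permuted within lines, r was 0.598 for Tgfb1 and Tgfbi, -0.69 for Tgfb3 and Ltbp1 and -0.675 for Tgfbr1 and Smad7, each with a permutation adjusted p = 0.0497. Without the 2 tumors farthest from the median of the first gene, r was 0.677, -0.659 and -0.562. By Spearman's rho Ltbp1 and Smad7 (rho = 0.609, permutation adjusted p = 0.0194) and Tgfbr1 and Ltbp1 (rho = -0.547, permutation adjusted p = 0.0423) passed too, which by r they did not (r = 0.543, permutation adjusted p = 0.0505, and r = -0.419, permutation adjusted p = 0.159). The transcripts of Tgfb3 and Ltbp1 thus ran against each other across tumors, and so did those of Tgfbr1 and Smad7. With the summed fibroblast markers, r was 0.737 for Tgfb3 and -0.417 for Ltbp1. With the summed endothelial markers, r was 0.801 for Tgfbr1 and -0.57 for Smad7. With the summed T and NK cell markers, r was 0.735 for Tgfb1 and 0.819 for Tgfbi. Other sums gave Tgfb1 a like r: 0.736 for macrophage, 0.677 for endothelial and 0.617 for regulatory T cell markers. For Tgfbi these were 0.501, 0.609 and 0.575. With the fibroblast sum, r was 0.206 for Tgfb1 and 0.00339 for Tgfbi. These sums were picked after their values were seen, and the part of cell types in the 3 pairs was not tested.

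**Figure D5:**
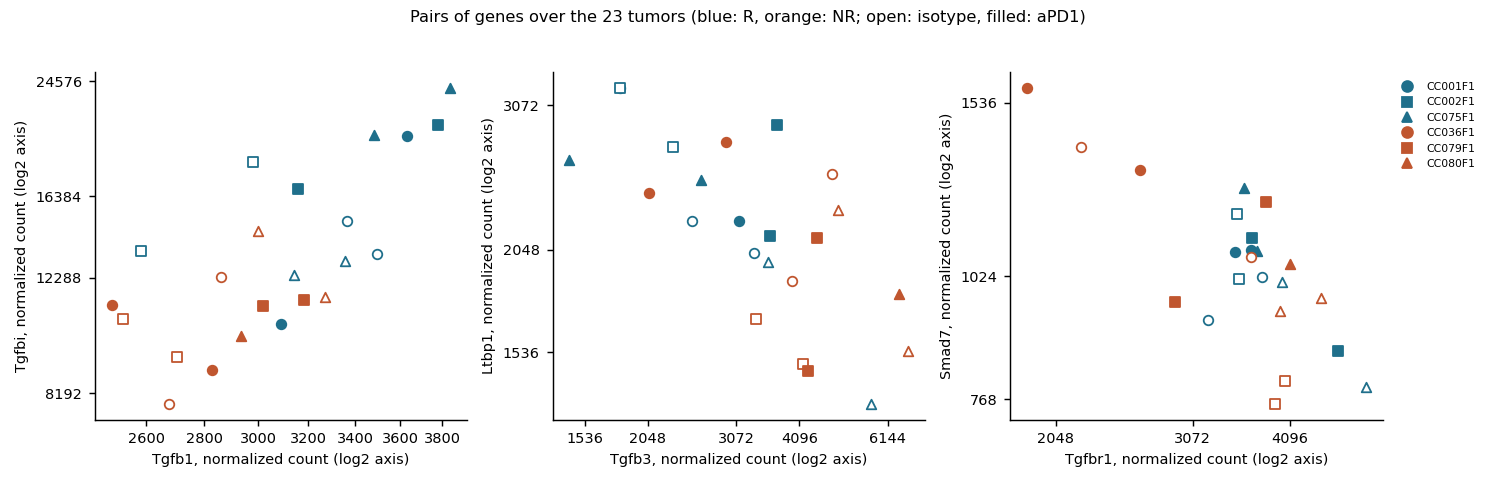
Normalized counts of 3 pairs of genes in the 23 tumors, on log2 axes; colour gives the class (blue R, orange NR), shape the line, and open or filled points isotype or aPD1. Tgfb1 and Tgfbi are positively correlated (r = 0.719), and the 3 tumors with the highest Smad7, all from CC036F1, have the lowest Tgfbr1.

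The genes whose pattern was most like that of a member were looked up among 12054 others (12055 for Tgfb2) with a mean of at least 100 normalized counts, by r over the same 23 tumors, as a description. Tgfb1 was nearest to the actin regulators Cotl1 (r = 0.899) and Pfn1 (0.891) and to Pitpna (0.888). Tgfbi was nearest to Entpd1, the ectonucleotidase CD39 (0.923), to the protease gene Ctsh (0.919) and to Neurl3 (0.916). Tgfb3 lay closest of all members to another gene, the matrix protease gene Mmp9 (0.942), followed by Pcdh10 (0.939) and Bmf (0.926). Tgfbr1 was nearest to Mef2c (0.917), to Cx3cr1, a chemokine receptor of macrophages and microglia (0.866), and to Sema6d (0.863). Smad7 was nearest to Nt5dc3 (0.886), Dnajc21 (0.869) and Fstl3, an activin-binding protein (0.868). Ltbp1 was nearest to Prkca (0.843), the pseudogene Gm15922 (0.82) and Soat1 (0.814). Tgfbr2 had weaker neighbours in Arhgef12 (0.785), Gbf1 (0.782) and P3h1 (0.764), and so did the sparse Tgfb2 in the pseudogene Gm15542 (0.715), Dusp3 (0.671) and Tmem265 (0.659). Within lines the same 24 pairs kept r of 0.656 to 0.967.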

How the data were processed

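RNA of 23 tumors was sequenced from poly(A) libraries. The authors aligned reads with bowtie 1.2.3 to founder transcriptomes (g2gtools 0.2.9, gbrs 0.1.6, GRCm38) and deposited expected counts for 26869 genes, which were rounded here to whole numbers; reads of near-identical genes are split by estimate. Names came from GENCODE vM21 for 26681 genes, and the other 188 hold 0.0993% of counts. Groups came from the labels, and the class of each line (R or NR) from the study's text. DESeq2 1.42.0 in R 4.3.3 was the main test, with at least 5 summed counts per gene and Benjamini-Hochberg adjusted p under 0.05 over all genes. edgeR 4.0.16 with TMM, limma 3.58.1 and the settings in the closing section were alternatives. Some of the DESeq2 and edgeR fits were also run on simulated data, and the outcome is not given here. For the line test edgeR values stand beside those of DESeq2. The members and lists were chosen with earlier results of these data known. Pathway genes were named where called between lines or between classes over all tumors, at most the 20 of largest change, and where called with aPD1. For each member the 3 genes with the highest r were named. Columns of per-sample values left out numbered 0. Depth is the total count of a library, and intervals cover the fitted model only. One (1) pathway gene is counted in its list but not reported here.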

Additional observations from a re-analysis of the deposited data

Results flagged for a closer look

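Of 72 groups of 4 to 6 tumors examined for a tumor far from the others, 6 had one, where chance gives about 1 in 20. Tgfb2 in CC001F1 isotype replicate 2 was 27.9 normalized counts, below the other 3 tumors of the line (67.4 to 71.9). Tgfbr1 in CC002F1 aPD1 replicate 2 was 4725, above the other tumors of the line (3499 to 3667) and above the other R aPD1 tumors (3480 to 3720). Tgfbr1 in CC036F1 isotype replicate 2 was 2207, below the other NR isotype tumors (3651 to 4500). Tgfbr2 in CC075F1 isotype replicate 2 was 9996, above the other R isotype tumors (8090 to 8552). Ltbp1 in CC001F1 aPD1 replicate 2 was 3225, above the other tumors of the line (2030 to 2220).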

How the results depend on the processing

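Of 5 members called between lines, edgeR called 3 and the deep libraries alone 2, and leaving out 1 tumor at a time gave 3 to 6. Between classes the count of 2 became 2 to 4 over all tumors, 0 to 2 against 0 in isotype tumors and 1 to 2 against 2 in aPD1 tumors when 1 tumor was left out. In aPD1 tumors edgeR, the deep libraries and counts summed per line and antibody each gave 1, and limma gave 0. For aPD1 the leave-outs gave 0 to 1 over all lines, 0 to 1 in R lines, and 0 to 0 in NR lines and in the interaction. The cause of these changes was not tested. Values near 0 changed sign: the class difference of Tgfb2 with depth as a term (-0.032), that of Tgfbr2 in the deep libraries (0.029), in limma (0.006), with counts summed per line (0.016) and over the leave-outs (-0.055 to 0.004, the latter without CC080F1 isotype replicate 2), and the NR antibody effect of Tgfbi in the deep libraries (0.003) and over the leave-outs (-0.116 to 0.084). Replicate numbers did not pair the tumors, with correlations of deviations of 0.368, 0.0624, -0.202, 0.202 and 0.115. With a replicate block 1 member was called in isotype tumors, Tgfbi (0.39, DESeq2 adjusted p = 0.0143), and the interaction called 21 genes against 9. Of the 28 pairs, 3 passed, and 4 with TMM-scaled CPM. The 6 shallow libraries limit what low transcripts such as Tgfb2 can show.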
